A study of Mus musculus with 6 samples.

Results

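The Galnt genes encode polypeptide N-acetylgalactosaminyltransferases, and 10 of them were described here across the 6 libraries of a mouse brain experiment. The members were matched by gene symbol (Galnt15, Galnt1, Galnt2, Galnt7, Galnt9, Galnt11, Galnt13, Galnt14, Galnt16 and Galnt18) and are 10 of 50559 listed genes and 10 of 19 Galnt family symbols in the tables. They were proposed with the difference between the groups in view, and Galnt15 was chosen for that difference, so the values of the members are given as a description with no test. RNA was sequenced from 3 libraries of C57 mice labelled as overexpressing WNT3, a secreted Wnt ligand, and from 3 libraries of C57 mice labelled as WNT3 control. The labels give the tissue of all 6 libraries as auditory cortex, whereas the extraction protocol names striatum. They give neither the age of the mice, nor how WNT3 was overexpressed and in which cells, nor what the control mice received, nor whether replicates are separate animals, so the spread between libraries may be technical.

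These enzymes sit in the Golgi and start mucin-type O-glycosylation, the transfer of a GalNAc sugar from the donor UDP-GalNAc to serine or threonine of a protein on its way to the cell surface. Each isoenzyme prefers its own acceptor sites, and several, among them Galnt7, act best on peptides that already carry a GalNAc. The first sugar is then extended by the core 1 enzyme C1galt1, which needs the chaperone C1galt1c1, branched by Gcnt enzymes and capped with sialic acid by St3gal and St6galnac enzymes. In the brain such glycans are found on lipoprotein receptors, the amyloid precursor protein and matrix proteoglycans, and Galnt9 and Galnt13 are known as isoenzymes of neural tissue.

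Total counts ranged from 54642400 to 71803617 in the overexpression libraries and from 42614588 to 55859274 in the controls. Wnt3 itself was at 98.8, 7.45 and 8.71 CPM (counts scaled to library size with TMM factors) in overexpression libraries 1 to 3, against 2.70, 1.91 and 1.74 CPM in controls 1 to 3, so every overexpression library lay above every control. Over all 22360 tested genes, edgeR (quasi-likelihood test, Benjamini-Hochberg adjusted p of 0.05) called 0 genes (0% of those tested), while 1040 genes had an unadjusted p under 0.05 (4.65%) and DESeq2 called 64. Control 2 stood apart: on the TPM scale (the relative abundance of transcripts after division by their length) the noncoding RNA Bc1 took 9.77% of its total, against 2.43% to 3.26% in the other 5 libraries, and the median tested gene had 0.698 times the mean TPM of controls 1 and 3. Markers of cortical excitatory neurons were detected in every library, with summed levels of 1723 to 2032 CPM in overexpression and 1882 to 3350 CPM in controls. Those of striatal projection neurons summed to 274 to 339 CPM in overexpression and 290 to 459 CPM in controls.

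Sequence before a transcription start was matched by symbol in RefSeq (GRCm38.p6) for 7 of the 10 members, with 11 windows of 250 bases before to 50 bases after a start. Galnt1, Galnt2 and Galnt18 had no window. For Galnt15, the member with the largest difference, a short stretch around its motif match is printed, and for Galnt7 the bases before its start, as an example of a CpG-dense window with GC boxes. For Galnt15 the stretch lies at chr14:32029035-32029061 on the plus strand, and capitals mark the letters TGANTCA known as the AP-1 motif. It begins before the RefSeq start used here but inside the GENCODE M21 span of Galnt15, which begins at 32028989. The stretch may therefore hold UTR of another transcript. For Galnt7, the member with the second-largest fold change, the 250 bases lie at chr8:57653056-57653305 on the minus strand, and capitals mark the GC box letters GGGCGG.
Galnt15: tgctctgaccTGACTCAaggcatccca
Galnt7: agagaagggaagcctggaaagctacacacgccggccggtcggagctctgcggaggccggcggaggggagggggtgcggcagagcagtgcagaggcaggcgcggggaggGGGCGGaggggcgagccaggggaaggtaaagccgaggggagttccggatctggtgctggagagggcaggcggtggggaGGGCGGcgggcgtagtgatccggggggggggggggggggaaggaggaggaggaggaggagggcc

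The Galnt15 window held 9 CpG dinucleotides and the Galnt7 window 25, where the median of all 32851 RefSeq windows was 7. The windows of Galnt13 and Galnt14 held 28 and 23 CpG, and the 3 windows of Galnt16 held 17, 30 and 31. Galnt11 and Galnt9 have a pair of windows each, with 23 and 7 CpG for Galnt11 and 41 and 2 CpG for Galnt9, so that 2 of the 11 windows held fewer CpG than that of Galnt15. Searched on both strands, the AP-1 letters were in 2 of the 11 windows, 1 of Galnt15 and 1 of Galnt16, and in 7.81% of all windows. The GC box letters were in 5 of the 11 windows, 1 each of Galnt7, Galnt9, Galnt11, Galnt13 and Galnt14, and in 35.7% of all windows. The TCF/LEF letters CTTTGAT, the STAT letters TTCNNNGAA and the TATA box letters TATAAA were in 0 of the 11 windows, against 3.73%, 8.30% and 13.6% of all windows. A match describes letters only, and no binding was measured.

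Galnt15 was the member with the largest difference between the groups and, per transcript length, the member with the lowest level in the controls. Its locus is on the plus strand of chromosome 14, from 32028989 to 32062197 (mm10, GENCODE M21 annotation, ENSMUSG00000021903.11). Overexpression libraries 1 to 3 held 855, 1418 and 829 of its counts, against 186, 171 and 205 in controls 1 to 3. On the CPM scale these were 15.2, 22.8 and 11.6 in overexpression and 4.36, 3.14 and 4.05 in controls, with means of 16.5 ± 5.70 and 3.85 ± 0.64 CPM (SD, n = 3 each). The lowest overexpression library lay above the highest control, with overexpression library 2 the highest and overexpression library 3 the lowest of its group. The ratio of the group means was 4.30, and the fitted log2 fold change was 2.10 ± 0.30 (SE). A log2 fold change of at least 2 was fitted for 0.362% of all tested genes, and since the gene was chosen on this contrast, nothing further is read from that share. In bulk tissue, more RNA per cell and more cells of a type that expresses the gene cannot be told apart.

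**Figure D1:**
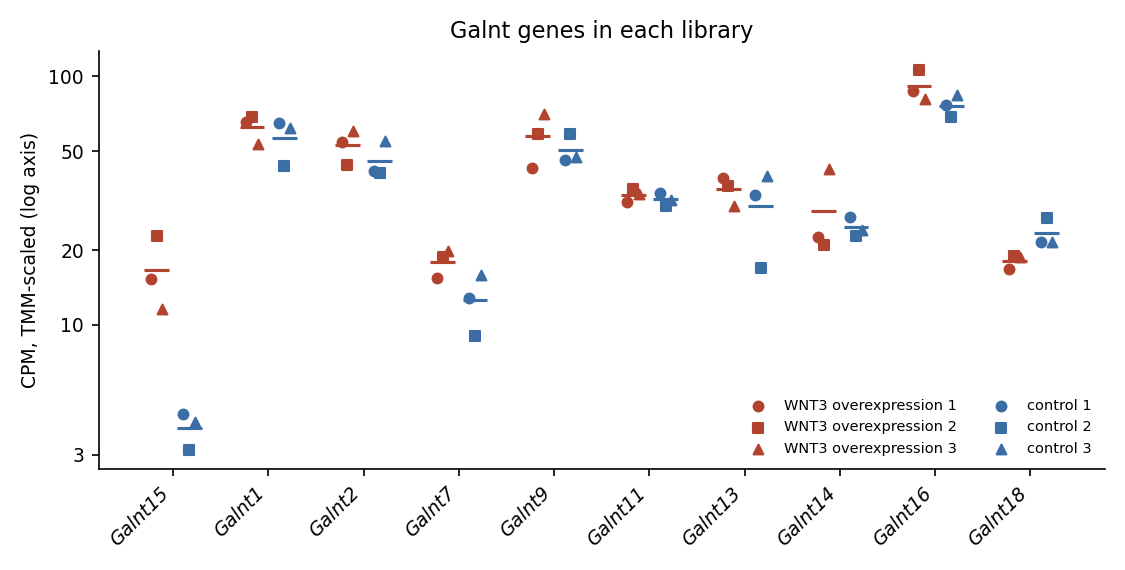
Expression of the 10 Galnt members in each library, in CPM on TMM-scaled library sizes (log axis), with overexpression libraries in red left of controls in blue, 1 symbol per replicate number and bars at group means. Galnt15 lies at 11.6 to 22.8 CPM in overexpression and 3.14 to 4.36 CPM in controls, while in 8 of the other members the groups overlap.

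Galnt18, a less well characterised member of the family, was the only member besides Galnt15 whose groups did not overlap, and it was lower. It was at 16.7, 18.9 and 18.8 CPM in overexpression libraries 1 to 3, against 21.5, 26.9 and 21.6 CPM in controls 1 to 3. All 3 overexpression libraries lay close together below the controls, of which control 2 was the highest. Means were 18.1 ± 1.19 CPM in overexpression and 23.3 ± 3.05 CPM in controls (SD, n = 3 each), and the log2 fold change was -0.36 ± 0.18 (SE). Groups did not overlap in 1 of 10 members in the higher direction (5.89% of all tested genes) and in 1 of 10 in the lower direction (6.04%). On the TPM scale, where control 2 is low, the groups of Galnt18 overlapped, at 16.9, 18.4 and 17.7 TPM in overexpression and 20.4, 17.5 and 20.4 TPM in controls.

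The broadly expressed initiating enzymes Galnt1 and Galnt2, which act on many acceptor peptides, differed by less than the spread between libraries. Galnt1 (chromosome 18) was at 65.5, 68.5 and 53.4 CPM in overexpression libraries 1 to 3, against 64.7, 43.8 and 61.8 CPM in controls 1 to 3. Only control 2 lay below all overexpression libraries, and the log2 fold change of 0.14 ± 0.20 (SE) became -0.02 without control 2. Galnt2 (chromosome 8) was at 54.6, 44.0 and 60.1 CPM in overexpression, against 41.8, 40.8 and 54.9 CPM in controls. Overexpression libraries 1 and 2 of Galnt2 lay below control 3, and the log2 fold change was 0.21 ± 0.20 (SE).

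Galnt7, the follow-on enzyme whose promoter window is printed above, had the second-largest log2 fold change among the members, 0.51 ± 0.25 (SE). It was at 15.4, 18.7 and 19.7 CPM in overexpression libraries 1 to 3, against 12.9, 8.99 and 15.8 CPM in controls 1 to 3. The groups overlapped only through overexpression library 1, which lay below control 3. Without control 2, the lowest library, the log2 fold change of Galnt7 was 0.32.

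The neural isoenzymes Galnt9 and Galnt13 ran in different directions in the library that stood apart. Galnt9 (chromosome 5) was at 43.0, 58.4 and 70.8 CPM in overexpression libraries 1 to 3, against 46.0, 58.7 and 47.4 CPM in controls 1 to 3. Overexpression library 1 held the lowest and overexpression library 3 the highest value of all 6, and the log2 fold change of 0.18 ± 0.22 (SE) was -0.0027 without overexpression library 3. Galnt13 (chromosome 2), the closest relative of Galnt1 in the family, was at 38.9, 36.2 and 30.2 CPM in overexpression, against 33.2, 16.9 and 39.8 CPM in controls. Control 2 was the lowest library for Galnt13 and the highest control for Galnt9. The log2 fold change of Galnt13 was 0.23 ± 0.30 (SE) with all libraries and -0.06 without control 2.

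Galnt14, known in human cells for glycosylating death receptors, was high in a single overexpression library. It was at 22.7, 21.0 and 42.3 CPM in overexpression libraries 1 to 3, against 27.2, 22.9 and 24.2 CPM in controls 1 to 3. Overexpression libraries 1 and 2 lay below every control and overexpression library 3 above every control. The log2 fold change of Galnt14 was 0.21 ± 0.28 (SE) with all libraries and -0.19 without overexpression library 3.

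The groups of Galnt11 and Galnt16 overlapped. Galnt11 (chromosome 5), which glycosylates LDL receptor family proteins, was at 31.1, 35.3 and 33.7 CPM in overexpression libraries 1 to 3 and 33.8, 30.2 and 31.9 CPM in controls 1 to 3, a log2 fold change of 0.06 ± 0.16 (SE). Galnt16 (chromosome 12) had the highest CPM of the members, at 87.7, 106 and 81.1 CPM in overexpression and 76.4, 68.5 and 84.3 CPM in controls. Overexpression library 3 of Galnt16 lay below control 3, and its log2 fold change was 0.26 ± 0.17 (SE).

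**Figure D2:**
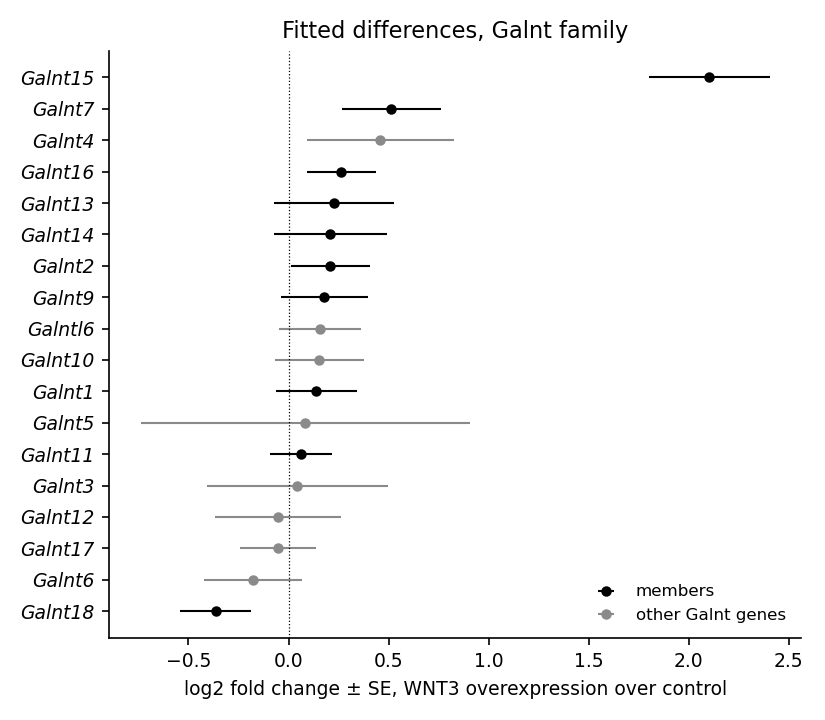
Fitted log2 fold changes with SE bars for the 10 members (black) and the 8 other Galnt genes with enough counts (grey), WNT3 overexpression over control, 3 libraries each. Galnt15 stands at 2.10, and the other 17 genes lie between -0.36 and 0.51.

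In all, 9 of the 10 members had a log2 fold change above 0, with a median of 0.21, beside 49.3% of all tested genes and a median of -0.01 over all of them. That count was 7 without control 2, where Galnt1 and Galnt13 changed sign, and 7 without overexpression library 3, where Galnt9 and Galnt14 did. On the CPM scale 7 of the 10 members had their lowest value in control 2. Summed over the 9 members other than Galnt15, overexpression libraries 1 to 3 reached 376, 407 and 410 CPM, against 357, 318 and 382 CPM in controls 1 to 3, with overexpression library 1 below control 3.

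Levels were compared between genes on the TPM scale, which is per length. The low scale of control 2 enters the control means and SDs that follow, but not the rank of a gene within a library. Ranks and shares can still carry other differences of control 2, where Galnt18 had rank 5, against rank 6 in controls 1 and 3. By mean TPM, the order in controls was Galnt16, Galnt9, Galnt1, Galnt11, Galnt2, Galnt18, Galnt14, Galnt13, Galnt7 and Galnt15. Means in controls were 42.3 ± 11.8 TPM for Galnt16, 37.2 ± 3.36 TPM for Galnt9 and 31.5 ± 11.2 TPM for Galnt1 (SD, n = 3), and the ranges given by these SDs overlapped. Library by library, Galnt16 lay above Galnt1, at 46.9, 28.9 and 51.1 TPM against 39.0, 18.6 and 36.8 TPM in controls 1 to 3. Within single controls, Galnt16 ranked first in controls 1 and 3 and Galnt9 in control 2, and Galnt9 had rank 3 in control 1. Galnt11 and Galnt2 averaged 24.5 ± 5.81 and 24.3 ± 7.74 TPM in controls (SD, n = 3) and did not differ beyond their spread. Galnt18, Galnt14, Galnt13 and Galnt7 followed at 19.5, 11.7, 9.19 and 6.41 TPM in controls. In overexpression the same order of means held except that Galnt2, at 31.9 ± 4.75 TPM, stood before Galnt11, at 29.7 ± 1.65 TPM (SD, n = 3).

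Galnt15 was the lowest member in all 3 controls and in overexpression libraries 1 and 3, and the second lowest, above Galnt14, in overexpression library 2. On this scale overexpression libraries 1 to 3 had 8.49, 9.99 and 4.34 TPM, and controls 1 to 3 had 2.58, 0.789 and 1.47 TPM. Its share of the summed TPM of the 10 members was 3.25%, 3.62% and 1.62% in overexpression, against 1.11%, 0.536% and 0.600% in controls, a share that the scale of a library does not move. The groups did not overlap in this share. Galnt18 made up 6.49%, 6.66% and 6.58% in overexpression, against 8.79%, 11.9% and 8.34% in controls, and there too the groups did not overlap.

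The reads behind 1 unit of TPM were nearly constant for 8 members and not for Galnt15 and Galnt14. The measure is the deposited count over the deposited TPM, divided by the median of that ratio in the library. For Galnt15 overexpression libraries 1 to 3 had ratios of 1.37, 1.67 and 1.89, against 1.20, 1.97 and 1.96 in controls 1 to 3. The groups overlapped, with control 1 the lowest and the other controls the highest of the 6 libraries. The highest value of Galnt15 was 1.64 times the lowest, a wider span than in 97.8% of the 13491 genes with at least 100 counts in every library, whose median span was 1.02. GENCODE M21 lists a pair of coding transcripts for Galnt15, of 6326 and 3563 spliced bases, the shorter with 8 exons in place of 10. Galnt14 was at 1.38, 1.79 and 1.46 in overexpression and 1.37, 1.75 and 1.18 in controls, a span of 1.53, wider than in 97.0% of the genes. The span of the other members was 1.06 or less. Why the ratio differed between libraries was not tested.

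**Figure D3:**
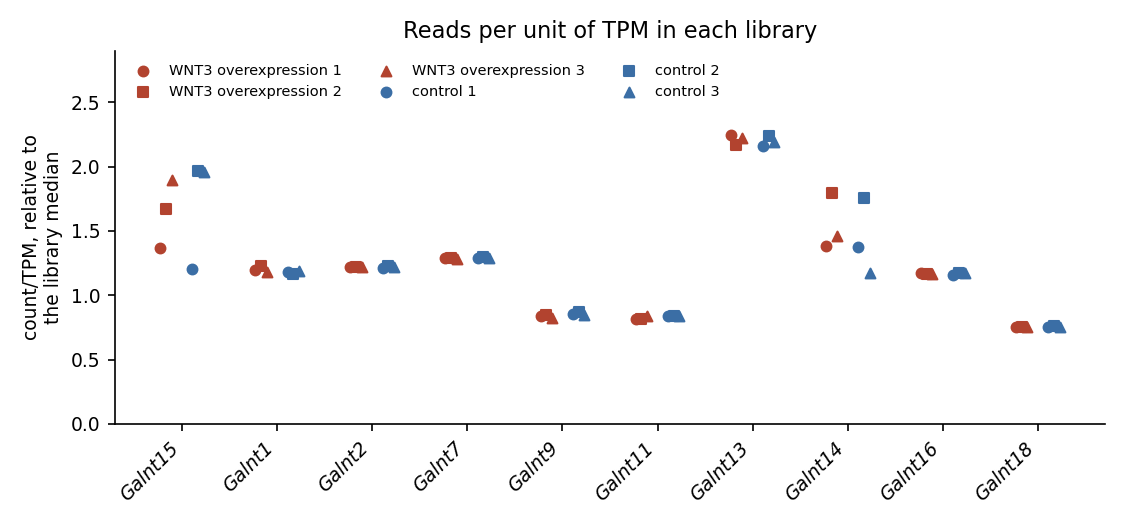
Deposited count over deposited TPM, relative to the library median, for each member and library, with overexpression in red left of controls in blue. Galnt15 spans 1.20 to 1.97 and Galnt14 spans 1.18 to 1.79, with overlapping groups, while each other member keeps nearly the same value in all 6 libraries.

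Some members share their locus with other annotated genes, and no source used here gives the strand setting of the counting. Galnt15 overlaps Gm49084 on the opposite strand, Galnt11 overlaps E130116L18Rik on the opposite strand, and Galnt2 overlaps Gm20388 on its own strand. On the opposite strand, Galnt16 overlaps 4 genes, Galnt7 overlaps 3, Galnt2 and Galnt14 overlap 2 each, and Galnt13 overlaps 1. On the same strand, Galnt7 overlaps 5 genes, Galnt14 overlaps 3, and Galnt1, Galnt13 and Galnt16 overlap 1 each. Galnt9 and Galnt18 overlap none in GENCODE M21. The libraries were strand-specific per the labels, so whether reads of opposite-strand partners entered the counts of the members depends on that setting, and it was not tested. Whether reads of same-strand partners entered those counts was not tested either.

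Among the 9 other Galnt family genes, the highest log2 fold change was 0.46, that of Galnt4. Of these genes, 8 had enough counts to be tested, 5 with a log2 fold change above 0 and 3 below, and 0 were called at an adjusted p of 0.05 by edgeR, 0 had an unadjusted p under 0.05 and DESeq2 called 0. The median log2 fold change was 0.06. Galnt17 and Galntl6, the most abundant of them, were at 30.0 ± 3.77 and 23.3 ± 2.46 CPM in overexpression, against 31.2 ± 4.88 and 20.9 ± 3.99 CPM in controls (SD, n = 3 each). Galnt6, Galnt10 and Galnt4 averaged 14.4, 7.33 and 5.63 CPM in overexpression, against 16.3, 6.59 and 4.11 CPM in controls, all with overlapping groups. Galnt3, Galnt5 and Galnt12 averaged 0.521 to 1.99 CPM in overexpression and 0.496 to 2.07 CPM in controls. Galntl5 had 0 counts in all 6 libraries, which allows a level of up to 0.0420 to 0.0704 CPM per library (3 counts, counting error only).

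The later steps of the pathway were counted in the same fit, with lists chosen when earlier results of these data were known. Of 11 tested core, branching and capping enzymes (13 listed), 6 had a log2 fold change above 0 and 5 below, with a median of 0.02, and edgeR called 0 over all genes. The most abundant per length were St3gal2, which adds sialic acid to core 1, at 75.4 ± 7.58 CPM in overexpression and 85.9 ± 8.44 CPM in controls (SD, n = 3 each), and the chaperone C1galt1c1, at 17.5 ± 1.03 and 17.8 ± 2.85 CPM. Groups did not overlap in 2 of the 11, St3gal1 and Gcnt1, both higher (5.89% of all tested genes) and both named after their values were seen. St3gal1, another core 1 sialyltransferase, was at 28.7, 24.3 and 24.3 CPM in overexpression libraries 1 to 3, against 16.9, 12.9 and 17.9 CPM in controls 1 to 3, with an unadjusted p of 0.0071 and an adjusted p of 0.82 in the edgeR test. Gcnt1, the core 2 branching enzyme, was at 5.10, 4.50 and 3.95 CPM in overexpression, against 2.91, 2.49 and 2.73 CPM in controls, with an adjusted p of 0.82 in the edgeR test. These were also the 2 of 11 with an unadjusted p under 0.05 (4.65% of all tested genes).

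Genes that supply the sugar donor, UDP-GalNAc, had values on both sides of 0 without a call. Of 7 tested, 2 had a log2 fold change above 0 and 5 below, with a median of -0.13, 0 called by edgeR and 0 with an unadjusted p under 0.05. Uap1, the pyrophosphorylase that makes UDP-linked amino sugars, was at 43.2 ± 6.79 CPM in overexpression and 51.0 ± 10.9 CPM in controls, and Gfpt1, the entry enzyme of the hexosamine pathway, at 74.4 ± 7.74 and 64.3 ± 18.1 CPM (SD, n = 3 each). Groups did not overlap in 1 of the 7, which was higher (5.89% of all tested genes). Enzymes that start other O-glycans numbered 11, of which 8 had a log2 fold change above 0, with a median of 0.18 and 0 called or under an unadjusted p of 0.05 by edgeR. Groups did not overlap in 2 of the 11, both higher (5.89% of all tested genes), and Poglut1 was 1 of them. Ogt, which adds GlcNAc to nuclear and cytoplasmic proteins, was at 497 ± 21.6 CPM in overexpression and 390 ± 116 CPM in controls, where control 2 had 268 CPM. Poglut1, an O-glucosyltransferase of Notch repeats, was at 46.0 ± 1.38 and 40.6 ± 0.58 CPM (SD, n = 3 each).

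Of proteins known to carry mucin-type O-glycans, 13 of 14 listed were tested, 8 with a log2 fold change above 0 and 5 below. Their log2 fold changes ran from -1.40 to 1.26 with a median of 0.08, and edgeR called 0 over all genes. App, the amyloid precursor protein, was at 1275 ± 72.7 CPM in overexpression and 1206 ± 159 CPM in controls, and Bcan, the proteoglycan brevican, at 162 ± 11.0 and 185 ± 43.0 CPM (SD, n = 3 each). An unadjusted p under 0.05 was reached by 2 of the 13 (4.65% of all tested genes), Podxl and Cd44, named after their values were seen. Cd44, a hyaluronan receptor, was at 7.06, 2.30 and 4.65 CPM in overexpression libraries 1 to 3, against 1.62, 1.82 and 2.79 CPM in controls 1 to 3, with overexpression library 2 below control 3. Podxl, a sialomucin of vascular endothelium, was at 69.1, 89.5 and 37.0 CPM in overexpression libraries 1 to 3, against 31.4, 26.9 and 23.6 CPM in controls 1 to 3, with an adjusted p of 0.82 in the edgeR test. It was the 1 of the 13 whose groups did not overlap (5.89% of all tested genes in the higher direction). From high to low, the overexpression libraries ran 2, 1 and 3 for Podxl and 1, 3 and 2 for Cd44. Since both genes were named after their values were seen, nothing is read from these orders.

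In 4 of the 13 marker lists every overexpression library had a higher sum than every control, and in 1, the oligodendrocyte precursors, every overexpression library had a lower one. Over all tested genes, groups did not overlap in 5.89% in the higher and 6.04% in the lower direction, and no such share was computed for sums. Among single markers, groups did not overlap in 3 of 8 endothelial, 6 of 10 reactive astrocyte and 4 of 6 tested infiltrating leukocyte markers, all higher. In oligodendrocyte precursors this held for 0 of 6. The 8 endothelial markers, all tested, summed to 329, 467 and 280 CPM in overexpression libraries 1 to 3, against 239, 219 and 219 CPM in controls 1 to 3, with 7 of 8 log2 fold changes above 0 and none of the markers at 0 in any library. The 10 reactive astrocyte markers summed to 349, 261 and 271 CPM in overexpression, against 111, 173 and 183 CPM in controls, with 10 of 10 above 0 and Lcn2 at 0 in at least 1 library. The 10 infiltrating leukocyte markers, 6 of them tested and all 6 above 0, summed to 60.7, 50.9 and 19.8 CPM in overexpression, against 12.3, 11.8 and 13.6 CPM in controls, with S100a9, Cd3e, Cd8a and Cd79a at 0 in at least 1 library. The filter on low counts keeps a gene with enough counts in either group alone, so a marker near 0 in controls can be tested. What share of the tested leukocyte markers lay higher can therefore depend on the filter, and nothing is read from it. Pericyte and smooth muscle markers summed to 224 to 265 CPM in overexpression and 195 to 216 CPM in controls, with 5 of 8 above 0. Their median log2 fold change was 0.04, and groups did not overlap in 1 marker in the higher and 1 in the lower direction. The part of these cell types in the Galnt15 values was not tested.

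General astrocyte markers summed to 5774 to 6208 CPM in overexpression and 3804 to 7199 CPM in controls, and microglial markers to 266 to 428 CPM in overexpression and 317 to 491 CPM in controls, both with overlap. Log2 fold changes were above 0 in 0 of 8 microglial, 1 of 8 oligodendrocyte, 2 of 10 striatal projection neuron, 2 of 6 oligodendrocyte precursor and 4 of 10 cortical excitatory neuron markers. They were above 0 in 5 of 8 inhibitory neuron, 7 of 8 general astrocyte, 7 of 8 meningeal fibroblast and all 6 tested of 8 choroid plexus markers. The limit that the filter sets for the leukocyte markers holds for those of the choroid plexus too. Oligodendrocyte, inhibitory neuron, meningeal fibroblast and choroid plexus sums overlapped as well, and the oligodendrocyte precursor sums nearly touched, at 134 to 165.8 CPM in overexpression and 165.8 to 181 CPM in controls. Control 2 held the lowest general astrocyte sum and the highest cortical excitatory neuron sum of the 6 libraries, and it was also the lowest library for Galnt1, Galnt2, Galnt7, Galnt11, Galnt13, Galnt15 and Galnt16.

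**Figure D4:**
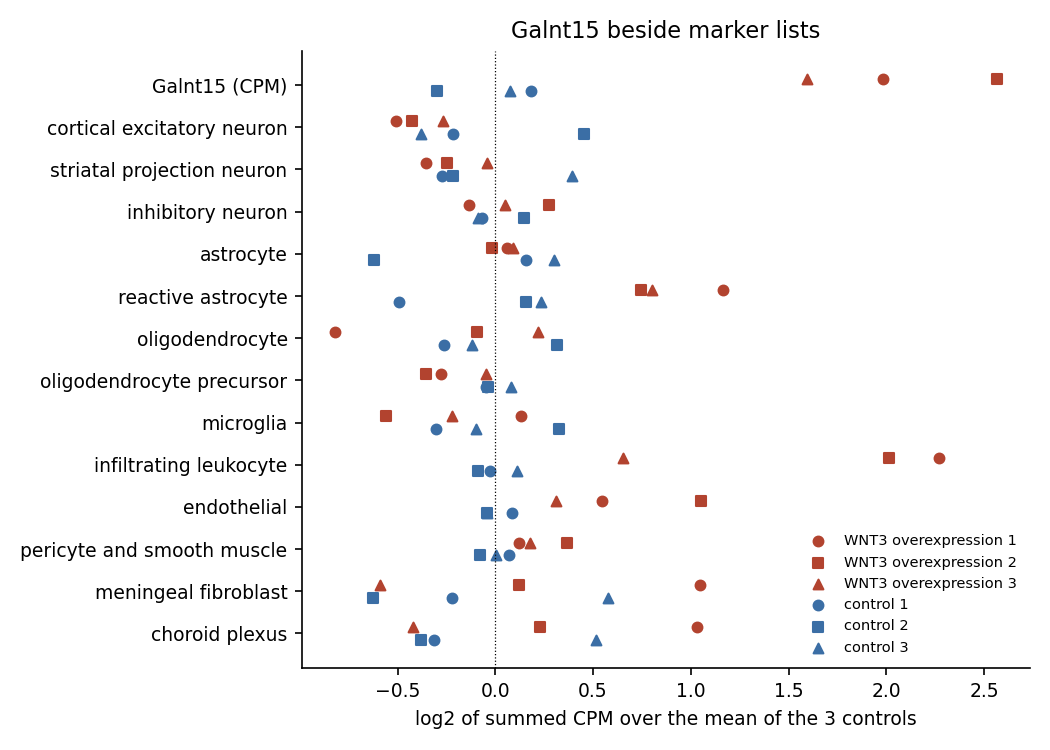
Galnt15 and the summed CPM of each marker list, as log2 of each library over the mean of the 3 controls, with overexpression in red above controls in blue. Overexpression libraries lie above all controls for Galnt15 and for the reactive astrocyte, infiltrating leukocyte, endothelial and pericyte lists, and the other lists overlap or nearly touch.

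The genes with the pattern most like Galnt15 over the 6 libraries were Dgka, Col2a1, Zfp930, Lrrc57 and Nudt13, ranked by Pearson r of log2 CPM among 13865 named genes with a mean of at least 1 CPM. Their r with Galnt15 was at least 0.98 over 6 libraries that fall into 2 groups, a description with no p. Dgka, a diacylglycerol kinase, was at 14.7, 15.5 and 14.1 CPM in overexpression libraries 1 to 3, against 11.7, 11.3 and 11.8 CPM in controls 1 to 3. Col2a1, a fibrillar collagen, was at 1.91, 2.23 and 1.84 CPM in overexpression and 1.34, 1.34 and 1.33 CPM in controls. All 5 genes were high in overexpression library 2, which follows from ranking genes by likeness to Galnt15. They had far smaller folds than Galnt15.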

How the data were processed

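RNA was extracted with Trizol and made into strand-specific TruSeq libraries, per the labels' protocols. The authors' deposited tables hold whole-number counts per gene and TPM values for the same 50559 genes in 6 libraries, and each column was matched to its sample by library name. STAR 2.5.3a, DESeq 1.16.1, Cuffnorm, FastQC 0.11.5 and the build mm10 are named, without roles, in the submitters' processing notes. No source used here gives the counting program, the annotation or the strand setting. Genes were kept by filterByExpr (minimum count 10, by group), which left 22360 genes, among them all 10 members. Groups were compared with edgeR 4.0.16 (quasi-likelihood, TMM factors, a model of group alone with 4 residual degrees of freedom, Benjamini-Hochberg adjustment over all tested genes at 0.05) in R 4.3.3. A check on simulated counts asked only whether log2 fold changes were recovered. It held no library that stood apart as control 2 did, and nothing on the calls is read from it. The SE is the size of the log2 fold change over the square root of F. No permutation test was used, since the smallest two-sided p that 3 libraries against 3 allow is 0.1.

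The members and lists were chosen with earlier results of these data known. Named genes were the members, the other Galnt genes, Wnt3, the 2 genes of each pathway list with the highest mean TPM in controls, and 5 genes most like Galnt15; others are said to be named after their values were seen. Same-numbered libraries were not paired: the correlation of their deviations from group means was 0.06, -0.02 and -0.01. Alternatives were other scaling factors and filters, DESeq2 1.42.0, limma 3.58.1 (voom, and trend on log2(TPM + 1) and log2(TPM + 0.1)), robust empirical Bayes, the replicate block and the omission of each library. TMM scaling of TPM was chosen after seeing the data. A comparison of protein sequences was planned and is not given here.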

Additional observations from a re-analysis of the deposited data

How the results depend on the processing

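The number of genes called over the whole table was 0 in every alternative run except DESeq2, which called 64, and the count in each pathway list was 0 in all of them, DESeq2 included. Under the replicate block 0 genes were called and 751 had an unadjusted p under 0.05, and the log2 fold change of Galnt15 was 2.06; the block changed no call. Galnt15 stayed above 0 in all 19 alternatives. Its log2 fold change was 1.71 on log2(TPM + 1), with or without a minimum mean of 0.5 TPM, and 2.23 on log2(TPM + 0.1). On TMM-scaled TPM, also with a pseudocount of 1, it was 1.58. A pseudocount of 1 understates changes of low genes, and in the same fit of unscaled TPM the value was 1.71 with 1 and 2.23 with 0.1. On TMM-scaled TPM no other pseudocount was run, so how far it accounts for 1.58 was not tested. With single libraries left out it ran from 1.80 to 2.30. The number of members above 0 ran from 7 to 9 with single libraries left out and was 9 in each other alternative. Galnt18 stayed below 0 in all 19, from -0.42 to -0.13. Galnt2, Galnt7, Galnt11 and Galnt16 stayed above 0 in all 19, and Galnt1, Galnt9, Galnt13 and Galnt14 in 18 of 19. Counts of the members were above 100 in every library, and n is 3 libraries a group. Galnt15 was the lowest of the 10 members also by the median TPM of all 6 libraries.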
